A study of Mus musculus with 8 samples.

Results

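The genes for the cytotoxic granule proteins of mouse T cells were examined, namely 9 granzyme genes (Gzma, Gzmb, Gzmc, Gzmd, Gzme, Gzmf, Gzmg, Gzmk and Gzmm) and the perforin gene Prf1. They were chosen as a gene family, with earlier results of these data known, and all 10 had a row among the 41730 genes of the deposited count table. Expression was measured by RNA sequencing of CD8+ T cells of the OT-I genotype, a transgene whose T cell receptor recognises the peptide SIINFEKL of ovalbumin. The T cells were purified by flow cytometry after culture with bone marrow-derived dendritic cells (BMDCs) that lacked the liver X receptors (LXR-/-). The growth protocol says that the BMDCs were pulsed with this peptide, whereas the sample titles speak of cross-presentation, and the labels do not settle which was done. The tested cultures held 2 µM RGX-104, a synthetic LXR agonist (4 libraries), and the control cultures held the vehicle DMSO (4 libraries). The BMDCs of both groups were LXR-/-, the T cells of both groups are labelled OT-I with no LXR deletion named, and neither the age of the mice nor the length of the culture is given in the sources used here. Whether the 4 libraries of each group are separate cultures or mice is not stated, so each p-value reflects the spread among these libraries, and that spread may be technical.

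Killer T cells store perforin and granzymes in lysosome-related granules and release them towards a target cell. Perforin forms pores in membranes, and the granzymes, a family of serine proteases, then enter the target and cleave proteins there. Granzyme B cleaves after aspartate, for example in the death protein Bid, granzymes A and K cleave after basic residues, and granzyme M prefers methionine or leucine. Granzymes C to G are rodent proteins encoded in 1 cluster together with granzyme B. In CD8+ T cells, Gzmb and Prf1 are switched on after activation by T-box and Runx factors and by cytokine signals such as those of interleukin 2.

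Library totals were 30642316 to 35244624 counts with RGX-104 and 33942140 to 37714355 counts in controls, so that 1 CPM (count scaled to the library size in 1000000 counts) stood for 30.9 to 37.1 counts. RGX-104 libraries 2 and 3 were the closest pair (chi-square per degree of freedom of 1.36, against 2.34 to 6.80 for the other pairs within a group), but they differed by more than counting noise and were kept as separate libraries. The CD8 T cell markers summed to 3156 to 3211 CPM with RGX-104 and 3227 to 3332 CPM in controls, and of 8 tested, Lck was called higher and Cd8a, Cd8b1 and Cd3e lower (edgeR, 1 and 3 genes; over all tested genes, 4.82% were higher and 4.13% lower). Of 3 CD4 T cell markers, Cd4 had at most 14 and Foxp3 at most 6 counts in any library, while Zbtb7b was at 4.56 ± 0.141 CPM with RGX-104 and 5.63 ± 0.238 CPM in controls and was called lower (SD, n = 4 each, edgeR adjusted p = 0.0267). Lck and Zbtb7b overlap another annotated gene, and Lck has a scaffold copy. The part of these marker differences in the results below was not tested. Abca1, a cholesterol transporter and an LXR target, was at 125 ± 6.21 CPM with RGX-104 and 1.72 ± 0.295 CPM in controls (SD, n = 4 each). In these bulk samples, a change in the share of cells that express a gene and a change in RNA per cell cannot be told apart.

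The genes lie at 4 places in the genome (RefSeq coordinates, GRCm38). Prf1 spans chr10:61297751-61304684 and Gzmm chr10:79689020-79695261. Gzma spans chr13:113093824-113100981 and Gzmk chr13:113171630-113180965. The other 6 lie in 1 cluster on chromosome 14, with Gzmb at chr14:56258836-56262334, Gzmc at chr14:56231397-56241647, Gzmf at chr14:56205263-56211407, Gzmg at chr14:56156581-56159579, Gzmd at chr14:56129556-56132603 and Gzme at chr14:56117619-56120625.

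The promoters of the genes that passed the test below, and that of Gzmg, a neighbour of Gzmb with no counts, are shown to set their sequences side by side. Each is RefSeq sequence of GRCm38 from the strand of the gene, 5′ to 3′, and ends at the base before the outermost annotated start. Capitals mark matches on either strand to motifs of factors known to act on these genes, searched as T-box AGGTGT, Runx TGTGGT, AP-1 TGANTCA and STAT TTCNNNGAA, and to the nuclear receptor motif AGGTCA. The stretches are chr14:56262335-56262584 (minus strand) for Gzmb, chr10:61297586-61297750 (plus strand) for Prf1, chr13:113100982-113101231 (minus strand) for Gzma and chr14:56159580-56159829 (minus strand) for Gzmg.
Gzmb: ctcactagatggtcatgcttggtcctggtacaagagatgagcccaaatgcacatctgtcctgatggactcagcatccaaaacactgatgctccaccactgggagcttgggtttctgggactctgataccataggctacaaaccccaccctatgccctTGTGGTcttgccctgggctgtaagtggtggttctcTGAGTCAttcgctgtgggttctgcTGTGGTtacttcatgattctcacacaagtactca
Prf1: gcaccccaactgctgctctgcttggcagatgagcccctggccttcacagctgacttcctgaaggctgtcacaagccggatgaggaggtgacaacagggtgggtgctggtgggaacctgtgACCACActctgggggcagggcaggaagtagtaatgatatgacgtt
Gzma: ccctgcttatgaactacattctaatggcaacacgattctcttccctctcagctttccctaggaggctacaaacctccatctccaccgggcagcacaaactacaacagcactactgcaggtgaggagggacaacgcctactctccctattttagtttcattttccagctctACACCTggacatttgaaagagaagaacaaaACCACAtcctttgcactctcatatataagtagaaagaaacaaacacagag
Gzmg: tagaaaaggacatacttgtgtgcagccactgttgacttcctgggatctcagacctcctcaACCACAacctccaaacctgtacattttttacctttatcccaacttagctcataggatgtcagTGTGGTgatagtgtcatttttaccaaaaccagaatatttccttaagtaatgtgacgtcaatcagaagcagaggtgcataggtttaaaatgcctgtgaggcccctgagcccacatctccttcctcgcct

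Over the whole window of 250 bases before and 50 after the RefSeq start, a Runx match was present in 9 of the 10 genes, all but Gzmk, and in 16.8% of all 32851 promoters. T-box matches were present in 5 genes (13.7% of all promoters), AGGTCA in 4 (16.3%), STAT in 2 (8.30%) and AP-1 in 1 (7.81%). For Gzmm, the AGGTCA match lay only in a further window, at chr10:79693576-79693875 inside the gene, and not in the window at its outermost start. The only window of Gzmc, at chr14:56234608-56234907, also lay inside the gene. That of Gzmk lay before its RefSeq start but within the span of its GENCODE transcripts. The matches in Gzmc and Gzmk, and the lack of a Runx match in Gzmk, thus do not describe sequence before an outermost start. In Gzmb the Runx matches began 93 and 34 bases before the start and the AP-1 match 58 bases before it. In Prf1 the Runx match began 130 bases before the start used by the RefSeq table, and a T-box match 24 bases before it, past the printed stretch. In Gzma the T-box match began 80 and the Runx match 50 bases before the start. Of the genes of the cluster on chromosome 14, Gzmc to Gzmg each had a pair of Runx matches, at 190 and 128 bases before the start in Gzmg. The motif that LXR binds as a dimer, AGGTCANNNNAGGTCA, was in 5 promoters of all 32851 and in none of the 10 genes. With the exact repeat in so few of all promoters, its absence from the 10 genes carries no information on LXR binding. The motif counts describe these windows alone, the cluster genes share sequence and are not independent, and a match is not evidence of binding.

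A 20-base run was identical in the promoter windows of Gzmc, Gzmd, Gzme, Gzmf and Gzmg, at 45 to 70 bases before the start of each window's transcript. For Gzmc it lay at chr14:56234683-56234702, inside the annotated span of the gene and not before its outermost start. The run is printed because it sets these close paralogs apart from Gzmb.
Run of Gzmc to Gzmg: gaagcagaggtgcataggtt
It was found in these 5 promoters and in no other of the 32851. The promoters of Gzmb and of Gzmn, a further granzyme gene of the cluster, did not hold it.

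Gzmb and Prf1, the most abundant granzyme transcript and the perforin transcript, rose by small and closely replicated amounts with RGX-104. Gzma, at a level far below both, fell. Of the 10 genes, 6 passed the filter on low counts and were tested with the quasi-likelihood test of edgeR, with p-values adjusted by Benjamini-Hochberg over all 13290 genes tested. At adjusted p under 0.05, 3 of the 6 were called (8.95% of all tested genes were called), 2 of them higher (4.82% of all tested genes) and 1 lower (4.13% of all tested genes). The groups did not overlap in 4 of the 6 (14.5% of all tested genes). These were Gzmb and Prf1, higher (7.07% of all tested genes), and Gzma and Gzmm, lower (7.45% of all tested genes). The median log2 fold change was 0.18 over the 6 and 0.00 over all tested genes.

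Prf1, the gene for the pore former, was at 54.3, 55.4, 57.8 and 57.2 CPM in RGX-104 libraries 1 to 4, against 49.6, 49.8, 52.1 and 49.4 CPM in control libraries 1 to 4. Every RGX-104 library lay above every control library, and the gap between the groups was narrow. The means were 56.2 ± 1.63 CPM with RGX-104 and 50.2 ± 1.29 CPM in controls (SD, n = 4 each), and the log2 fold change was 0.16 ± 0.04 (SE, edgeR adjusted p = 0.00307). Without RGX-104 libraries 2 and 3, the closest pair, the log2 fold change was 0.15 with an edgeR adjusted p of 0.0515.

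Gzmb was at 6765, 6595, 6595 and 6940 CPM in RGX-104 libraries 1 to 4, against 5645, 5655, 5849 and 6202 CPM in control libraries 1 to 4. The groups did not overlap, and the control library nearest to the RGX-104 libraries was library 4. The log2 fold change was 0.20 ± 0.03 (SE, edgeR adjusted p = 1.85e-05), a fold of 1.15, from means of 6724 ± 165 CPM with RGX-104 and 5838 ± 260 CPM in controls (SD, n = 4 each). Without RGX-104 libraries 2 and 3 it remained called. Among the tested genes Gzmb had the fourth highest mean level, so that counting error was small beside the spread between libraries, with 191826 or more counts in each. The size of its change was not unusual over all tested genes, of which 16.9% changed by more on the log2 scale. That share includes genes of low counts with wide errors, such as Gzmf. The median fold of the called genes was 1.14.

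Read as shares of a library, Gzmb took 0.675 ± 0.0164% of all counts with RGX-104 and 0.581 ± 0.0211% in controls (SD, n = 4 each). This share restates the Gzmb levels above, whose groups did not overlap, so a test of it adds no support. A two-sided exact permutation test gave p = 0.0286, the smallest that 4 against 4 libraries allow. After Benjamini-Hochberg adjustment over the 7 measures formed within libraries it was 0.05, and several of these measures share the Gzmb counts. Gzmb made up 99.9% of all granzyme counts with RGX-104 and 99.8% in controls. The ratio of Gzmb to Prf1 counts was 119.7 ± 4.43 with RGX-104 and 116 ± 6.25 in controls, and the groups overlapped (SD, n = 4 each; exact permutation test, two-sided p = 0.371, adjusted p = 0.500).

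**Figure D1:**
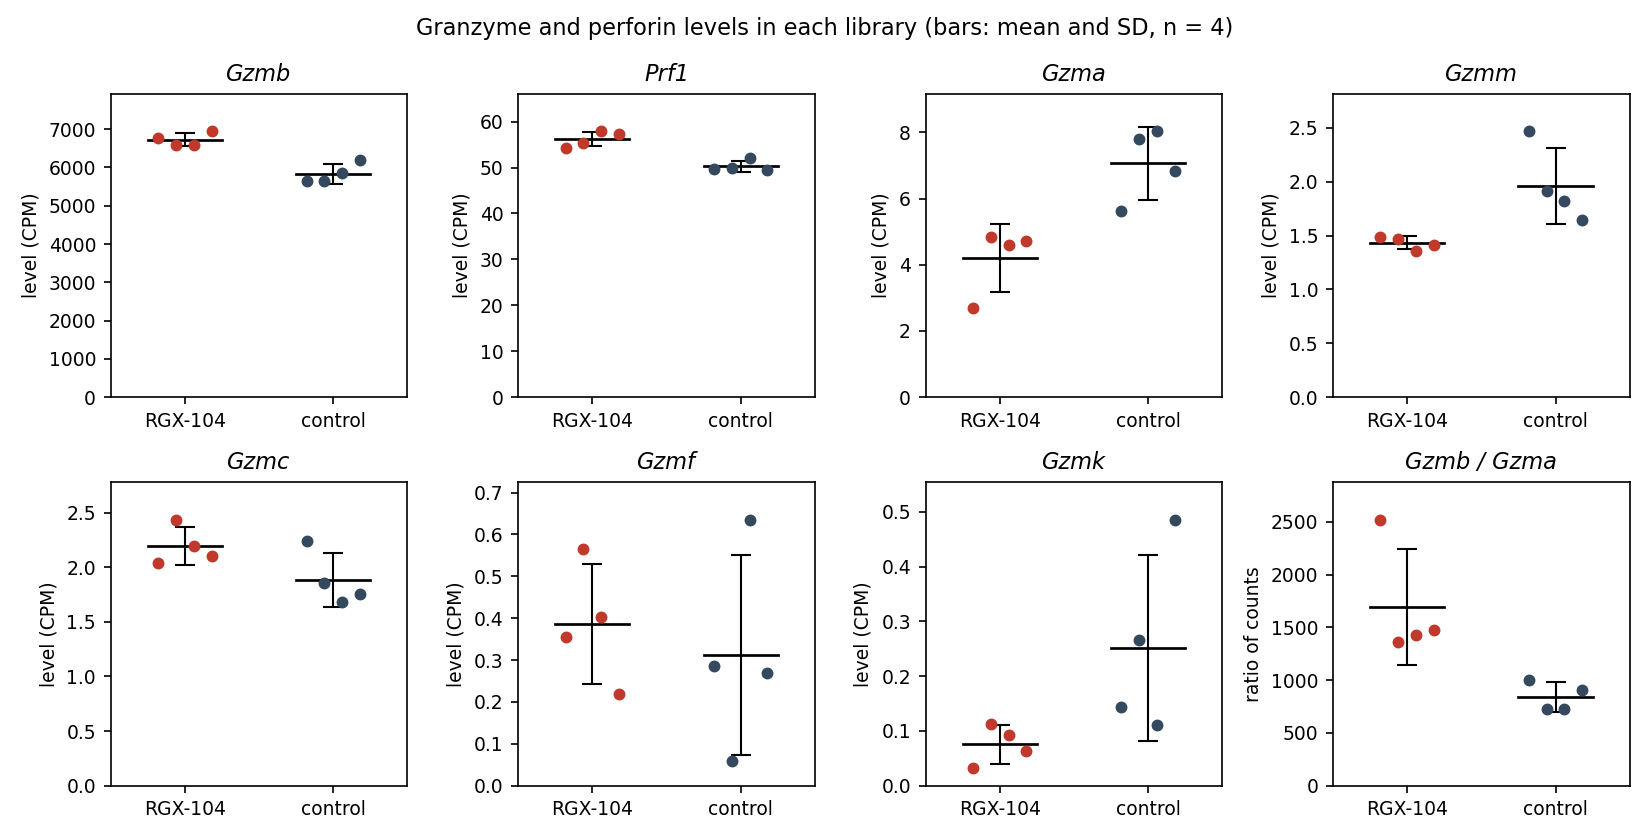
Levels of 7 of the genes in CPM (y axes, each from 0) and the ratio of Gzmb to Gzma counts, with RGX-104 libraries on the left and control libraries on the right of each panel. Points are libraries 1 to 4 from left to right within a group, and bars are the mean and SD (n = 4). The groups are separate for Gzmb, Prf1, Gzma, Gzmm and the ratio, and overlap for Gzmc, Gzmf and Gzmk.

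Gzma, a tryptase whose known targets include the SET complex, was at 2.69, 4.84, 4.61 and 4.71 CPM in RGX-104 libraries 1 to 4, against 5.62, 7.81, 8.03 and 6.82 CPM in control libraries 1 to 4. All RGX-104 libraries lay below all control libraries, and library 1 was the lowest of its group on both sides. Its counts were 83, 171, 149 and 150 with RGX-104 and 196, 265, 291 and 253 in controls. The means were 4.21 ± 1.02 CPM with RGX-104 and 7.07 ± 1.10 CPM in controls (SD, n = 4 each), a log2 fold change of -0.74 ± 0.17 (SE, edgeR adjusted p = 0.0250). This was the largest change among the 6 tested genes, and 0.933% of all tested genes changed by more.

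The call for Gzma depended on single libraries. It was lost without RGX-104 library 3 or 4 or control library 2, 3 or 4 (edgeR adjusted p = 0.0505 to 0.0687). It was kept in the other 3 of the 8 fits that each left out 1 library. The log2 fold change was -0.83 to -0.58 in all 8 fits. Without RGX-104 libraries 2 and 3 together it was -0.93 with an edgeR adjusted p of 0.0666. Gzma overlaps Cdc20b, which had 174 counts over the RGX-104 libraries and 197 over the controls, and the strand setting of the counting is not given, so reads of the pair may not be fully separated.

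Because Gzmb was higher and Gzma lower, the ratio of their counts within a library also separated the groups. Gzmb had 2518, 1363, 1431 and 1473 counts for each Gzma count in RGX-104 libraries 1 to 4, against 1004, 724, 729 and 909 in control libraries 1 to 4. Library 1 was the highest of its group on both sides, and RGX-104 library 1 stood far above the other 7 libraries. The mean ratio was 1696 ± 550 with RGX-104 and 842 ± 139 in controls (SD, n = 4 each). This ratio was formed after the direction of both genes was known and is given as a description.

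Gzmm, encoding granzyme M, was at 1.49, 1.47, 1.36 and 1.41 CPM in RGX-104 libraries 1 to 4, against 2.47, 1.92, 1.82 and 1.64 CPM in control libraries 1 to 4. Its groups did not overlap, but the counts were low, at 44 to 52 with RGX-104 and 61 to 86 in controls. The log2 fold change of -0.45 ± 0.15 (SE) did not pass the test (edgeR adjusted p = 0.0679). In a fit with the column number as a replicate block Gzmm did pass, with a log2 fold change of -0.45 and an edgeR adjusted p of 0.0318. With that block, 1109 genes were higher and 906 lower over the whole table (8.34% and 6.82% of the tested genes), against 640 and 549 without it.

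Gzmk, a second tryptase gene next to Gzma, was close to the lower limit of detection. It had 1, 4, 3 and 2 counts in RGX-104 libraries 1 to 4, against 5, 9, 4 and 18 counts in control libraries 1 to 4, or 10 in all with RGX-104 and 36 in all in controls. It missed the filter on low counts. On CPM, a two-sided exact permutation test gave p = 0.0571, or 0.171 after Benjamini-Hochberg adjustment over the 3 genes of this kind with any count. With no filter, edgeR gave it a log2 fold change of -1.68 and an adjusted p of 0.0243 (3.00% of the 22918 genes then tested were called lower), a call that rests on these few counts.

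Each RGX-104 library was also set beside the control library of the same column number. Gzmb was higher by 19.8%, 16.6%, 12.7% and 11.9% in columns 1 to 4, and Prf1 by 9.55%, 11.2%, 10.9% and 15.9%. The change of Gzma was -52.2%, -38.1%, -42.6% and -30.9% in columns 1 to 4, and that of Gzmm -39.6%, -23.2%, -25.3% and -14.0%. All 4 genes thus had 1 direction in all 4 column numbers, as the separation of their groups requires.

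**Figure D2:**
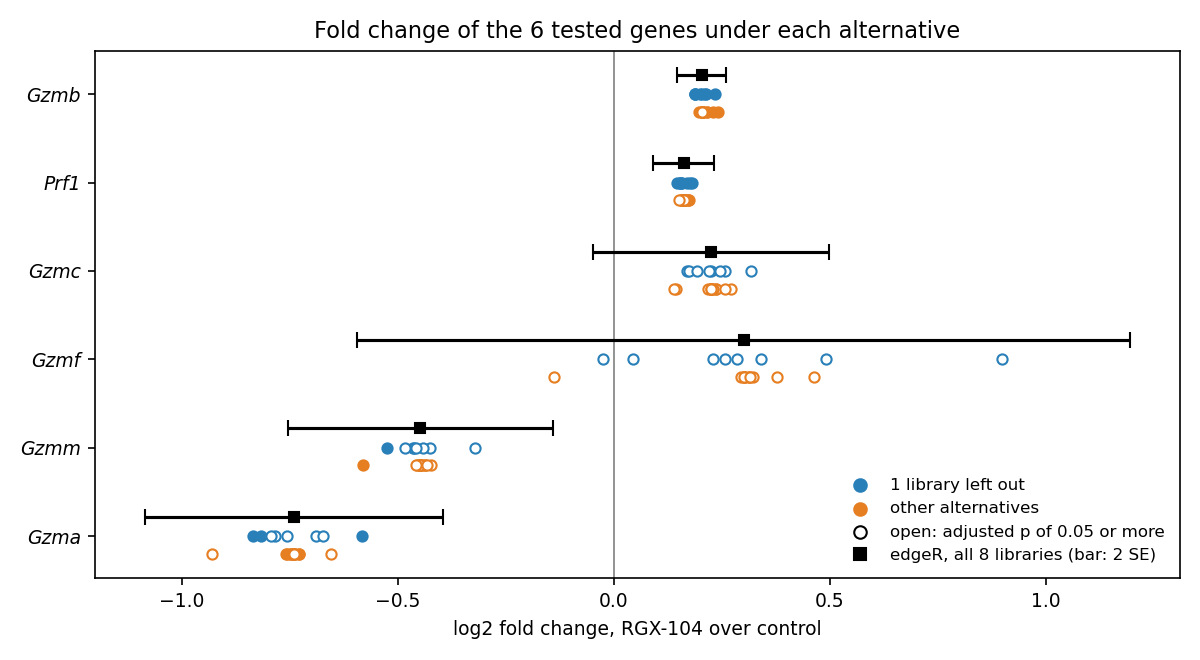
Log2 fold changes of RGX-104 over control (x axis) for the 6 tested genes. Squares with bars of 2 SE are the edgeR fit to all 8 libraries, circles are fits that each leave out 1 library or change another setting, and open circles have an adjusted p of 0.05 or more. Gzmb and Prf1 stay to the right of 0, Gzma spreads from -0.93 to -0.58 with many open circles, and Gzmf lies on both sides of 0.

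The rodent granzymes of the chromosome 14 cluster were all low. Gzmc was at 2.04, 2.43, 2.20 and 2.11 CPM in RGX-104 libraries 1 to 4, against 2.24, 1.86, 1.68 and 1.75 CPM in control libraries 1 to 4. Control library 1 lay inside the RGX-104 range, so the groups overlapped. The log2 fold change was 0.23 ± 0.14 (SE, edgeR adjusted p = 0.350). There were 0.327 ± 0.0317 Gzmc counts per 1000 Gzmb counts with RGX-104 and 0.324 ± 0.0525 in controls (SD, n = 4 each; exact permutation test, two-sided p = 0.971, also after adjustment).

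Gzmf had 11, 20, 13 and 7 counts in RGX-104 libraries 1 to 4, against 10, 2, 23 and 10 counts in control libraries 1 to 4. The highest and the lowest value both came from controls. The log2 fold change was 0.30 ± 0.45 (SE, edgeR adjusted p = 0.748), and it was -0.025 without control library 2 and -0.14 without RGX-104 libraries 2 and 3. Gzme had 2 counts with RGX-104 and 4 in controls over all libraries, and Gzmd had 3 counts with RGX-104 and 2 in controls. Gzmg had 0 counts in every library, which allows up to 0.0971 CPM in the smallest one, counting error only.

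How far reads of these neighbours can be told apart was read from their transcripts (GENCODE M21). Coding sequences of Gzmd, Gzme, Gzmf and Gzmg were 83.3% to 93.3% identical in pairs, with gaps counted as differences. Gzmc was 71.1% to 72.8% identical to them. Gzmb was 65.1% to 67.3% identical to the same 4 and 75.6% identical to Gzmc, with no stretch of over 49 bases in common with Gzmc. Of windows of 50 bases, 21.9% of Gzmd, 20.6% of Gzme, 19.8% of Gzmg and 19.4% of Gzmf were found in a transcript of another gene. For Gzmc it was 4.14%, and for Gzmb, Gzma, Gzmk, Gzmm and Prf1 it was 0%.

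At 100 bases, 0.231% of the windows of Gzmd, 0.247% of Gzmg and 6.71% of Gzmf were shared, the last with the antisense transcript Gm4022, which has no row in the table. The low counts of Gzmd to Gzmg are therefore uncertain to the extent that reads matching several genes were dropped or split, which was not tested. The counts of Gzmb, Prf1, Gzma, Gzmk and Gzmm do not have this limit at any of these lengths, and none of the 10 genes had a second copy on an alternate scaffold.

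**Figure D3:**
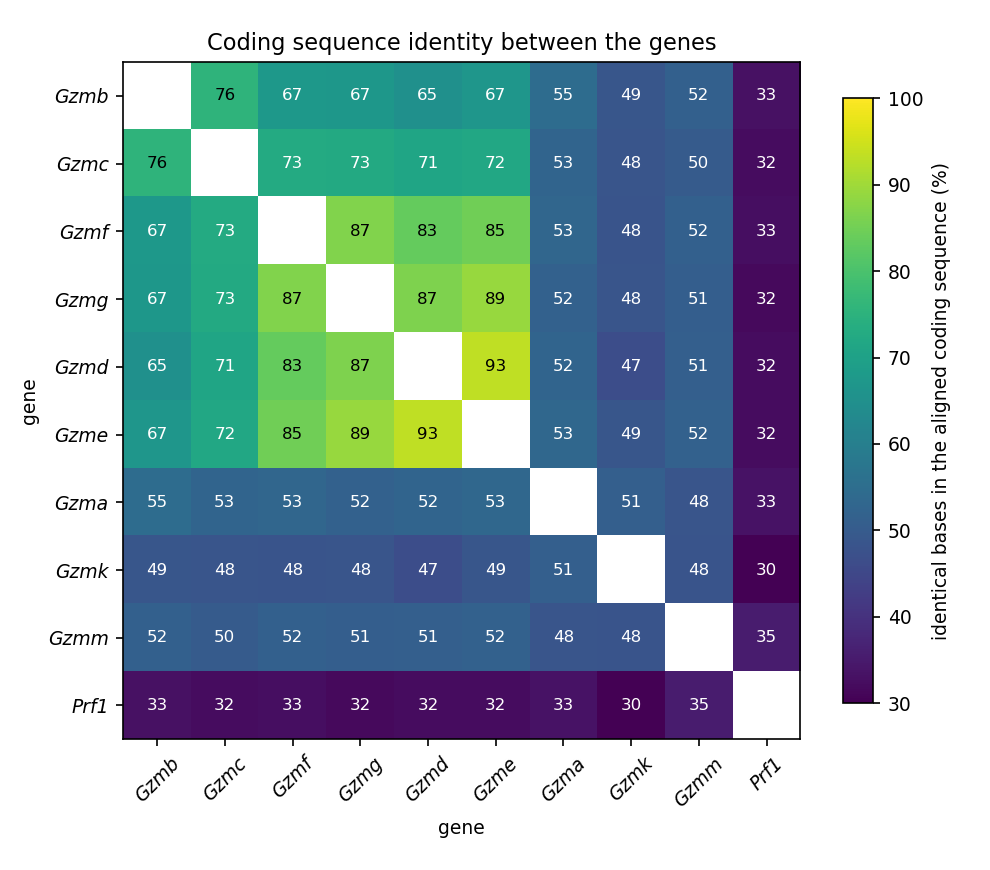
Percent of identical bases over the whole alignment of the coding sequences of each pair of genes, with gaps counted as differences. Both axes list the genes, and the colour and number give the identity. Gzmd, Gzme, Gzmf and Gzmg form a block at 83.3% to 93.3%, and Gzmb and Gzmc stand nearer to it than Gzma, Gzmk and Gzmm do. Prf1, of another family, is at 30.2% to 35.4%. Its coding sequence is longer (1662 bases, against 672 to 792 for the granzymes), so gaps alone hold its values low.

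Per kilobase of merged exons, the levels ran over several orders of magnitude. Gzmb was at 4682 ± 115 CPM per kilobase with RGX-104 and 4065 ± 181 in controls, followed by Prf1 at 21.8 ± 0.629 with RGX-104 and 19.4 ± 0.498 in controls (SD, n = 4 each). Next came Gzma, at 4.19 ± 1.01 CPM per kilobase with RGX-104 and 7.03 ± 1.09 in controls, and Gzmc, at 2.45 ± 0.193 with RGX-104 and 2.11 ± 0.276 in controls. The ranges of Gzma and Gzmc touched with RGX-104, where the lowest Gzma library was at 2.67 and the highest Gzmc library at 2.72 CPM per kilobase, and were apart in controls.

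Gzmm was at 0.974 ± 0.0395 CPM per kilobase with RGX-104 and 1.33 ± 0.241 in controls, below Gzmc in every library. Gzmf was at 0.420 ± 0.155 with RGX-104 and 0.340 ± 0.259 in controls, and Gzmk at 0.0542 ± 0.0254 with RGX-104 and 0.181 ± 0.122 in controls. Gzmf and Gzmk overlapped in controls and were apart with RGX-104. Gzme and Gzmd, at no more than 0.0642 CPM per kilobase in any library, could not be ordered, and Gzmg was at 0.

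**Figure D4:**
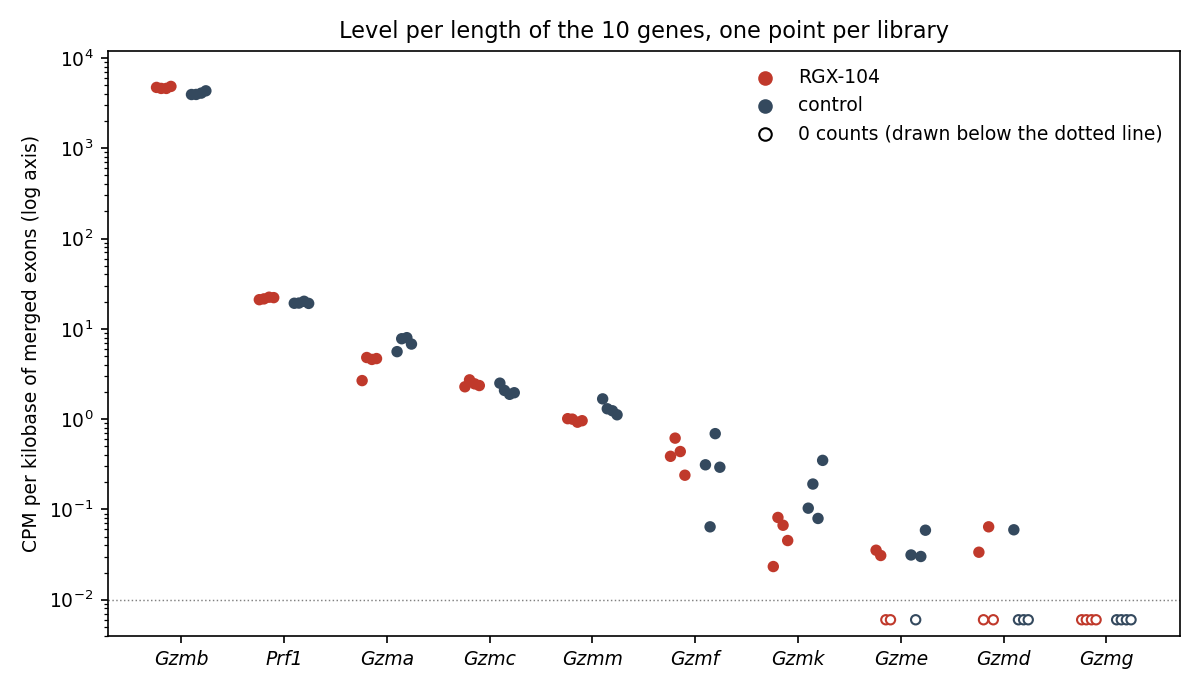
Level per kilobase of merged exons in CPM (log y axis) for the 10 genes, 1 point per library, with RGX-104 libraries left of control libraries. Open points below the dotted line are libraries with 0 counts. Gzmb lies at 3931 to 4833 and Prf1 at 19.1 to 22.4, and all other genes are lower.

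The genes whose pattern over the 8 libraries was most like that of Gzmb were found by the root mean square difference of log2 CPM, each gene centred on its own mean. The search covered 5918 genes whose mean log2 CPM was 5 or more, with predicted gene models, immune receptor segments and scaffold copies left out. The genes most like Gzmb included Nek6 (0.0184), Dusp4 (0.0308), Rpia (0.0329) and Selenok (0.0365). For Prf1 they were Rnf145 (0.0268), Gramd3 (0.0283), Mical1 (0.0318), Fndc3a (0.0321) and Sema4c (0.0322). Prf1 stood at rank 72 in the order for Gzmb and Gzmb at rank 264 in the order for Prf1, at a difference of 0.0607. All these libraries share the treatment contrast and the order carries no test.

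Genes of granule storage and granzyme processing were called in both directions. Of 15 tested, 2 were higher and 3 lower (4.82% and 4.13% of all tested genes), with a median log2 fold change of -0.04. Lamp1, a granule membrane protein used as a mark of degranulation, fell by 0.24 ± 0.04, and Nkg7, a granule membrane protein needed for efficient killing, fell by 0.21 ± 0.03 (log2, SE, edgeR adjusted p = 0.000119 and 2.33e-05). Srgn, the proteoglycan serglycin that holds granzymes in the granule, fell by 0.15 ± 0.03, to 195 ± 7.90 CPM with RGX-104, against 217 ± 10.1 CPM in controls (SD, n = 4 each, edgeR adjusted p = 0.00456). Igf2r, a mannose 6-phosphate receptor of the lysosomal route, rose by 0.16 ± 0.04 (edgeR adjusted p = 0.0355), but it overlaps Airn and has a scaffold copy. Gnptg, a subunit of the enzyme that makes the mannose 6-phosphate tag, rose by 0.14 ± 0.04 (edgeR adjusted p = 0.0311). Ctsc, the peptidase that activates granzymes, was at 149.8 ± 1.89 CPM with RGX-104 and 154 ± 4.77 CPM in controls (edgeR adjusted p = 0.478).

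Of 20 tested genes of granule transport and exocytosis, 1 was higher and 1 lower, a share near the 8.95% called over all tested genes, with a median log2 fold change of 0.03. Rab27a, which docks granules at the membrane, rose by 0.15 ± 0.03 (log2, SE, edgeR adjusted p = 0.000533). Ap3b1, a subunit of an adaptor that sorts granule proteins, fell by 0.12 ± 0.03 (edgeR adjusted p = 0.0255).

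Of 7 tested serpins listed as granzyme inhibitors, 4 were lower and 0 higher (4.13% and 4.82% of all tested genes), with a median log2 fold change of -0.18. Serpina3f fell by 1.03 ± 0.12 to 2.29 ± 0.235 CPM with RGX-104, against 4.68 ± 0.523 CPM in controls, and Serpina3g fell by 0.92 ± 0.08 to 4.65 ± 0.0579 CPM with RGX-104, against 8.82 ± 0.286 CPM in controls (log2 and SE, then SD, n = 4 each, edgeR adjusted p = 4.80e-07 and 2.35e-09). Serpina3g, though on this list, is known as an inhibitor of lysosomal cathepsins, and the pair are close paralogs. How far reads of Serpina3f and Serpina3g can be told apart was not tested, so their calls may not be independent. Serpinb6b, an inhibitor of granzyme A, fell by 0.18 ± 0.04 and Serpinb9, the inhibitor of granzyme B that protects killer cells, fell by 0.13 ± 0.03 (edgeR adjusted p = 0.00138 and 0.00562). Serpinb9 was at 312 ± 9.89 CPM with RGX-104 and 342 ± 12.1 CPM in controls, with no overlap (SD, n = 4 each).

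The death receptor route, which kills without granules, had 7 tested genes with 1 higher and 1 lower (4.82% and 4.13% of all tested genes), and a median log2 fold change of 0.02. Fas, the receptor, was at 21.3, 22.2, 21.3 and 19.3 CPM in RGX-104 libraries 1 to 4, against 25.3, 26.3, 26.8 and 25.6 CPM in control libraries 1 to 4. The groups did not overlap, and Fas fell by 0.31 ± 0.05 (log2, SE, edgeR adjusted p = 5.42e-05). Tnfrsf10b, the receptor for TRAIL, rose by 0.15 ± 0.04 (edgeR adjusted p = 0.0214). Fasl, the ligand of Fas, was at 14.1 ± 0.750 CPM with RGX-104 and 14.3 ± 0.849 CPM in controls (edgeR adjusted p = 0.866). Tnf had 0 counts, but it has a scaffold copy, so its expression was not assessed.

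Of 28 tested genes that encode known regulators of granzyme and perforin transcription, 3 were higher and 5 lower (4.82% and 4.13% of all tested genes), with a median log2 fold change of -0.04. Tbx21, encoding the T-box factor T-bet, was at 146, 134, 135 and 143 CPM in RGX-104 libraries 1 to 4, against 172, 158, 166 and 175 CPM in control libraries 1 to 4. The groups did not overlap, and the log2 fold change was -0.27 ± 0.03 (SE, edgeR adjusted p = 6.11e-06). Eomes, the other T-box factor of these cells, was at 52.1 ± 4.09 CPM with RGX-104 and 48.2 ± 2.54 CPM in controls and did not pass the test (edgeR adjusted p = 0.214). Prdm1, encoding Blimp-1, fell by 0.37 ± 0.06 and Klf2, a factor of quiescence and migration, by 0.56 ± 0.10 (log2, SE, edgeR adjusted p = 0.000208 and 0.000229).

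Il2rb, a subunit of the receptors for interleukins 2 and 15, rose by 0.28 ± 0.03 to 1393 ± 57.2 CPM with RGX-104, against 1147 ± 11.9 CPM in controls (log2 and SE, then SD, n = 4 each, edgeR adjusted p = 6.41e-08). Gata3 rose by 0.36 ± 0.07 (edgeR adjusted p = 0.00132). The remaining calls were Rbpj, higher, and Il12rb2 and Stat4, lower, named after their values were seen. Runx3, the Runx factor of killer cells, had at most 10 counts and has a scaffold copy, so its expression was not assessed. Runx1, of the same list, was at 3.76 ± 0.214 CPM with RGX-104 and 4.37 ± 0.448 CPM in controls (SD, n = 4 each). It did not pass the test (edgeR adjusted p = 0.210). Ifng, the effector cytokine often switched on together with Gzmb and Prf1, rose by 1.17 ± 0.16 (log2, SE, edgeR adjusted p = 0.00632). It was at 89.0, 64.2, 64.0 and 88.3 CPM in RGX-104 libraries 1 to 4, against 30.2, 32.7, 33.5 and 38.8 CPM in control libraries 1 to 4. Among the RGX-104 libraries, 1 and 4 were highest in Ifng and Gzmb, but also in Tbx21 and Eomes, and 2 and 3 were the closest pair. Prf1 did not follow this order, with library 1 the lowest at 54.3 CPM and library 3 the highest at 57.8 CPM. The order was seen after the values were known and was not tested. Of the genes named from these lists, Srgn, Gnptg, Serpinb9, Eomes, Runx1, Gata3, Stat4 and Il12rb2, as well as Igf2r, overlap another annotated gene, and their counts are uncertain for that reason.

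**Figure D5:**
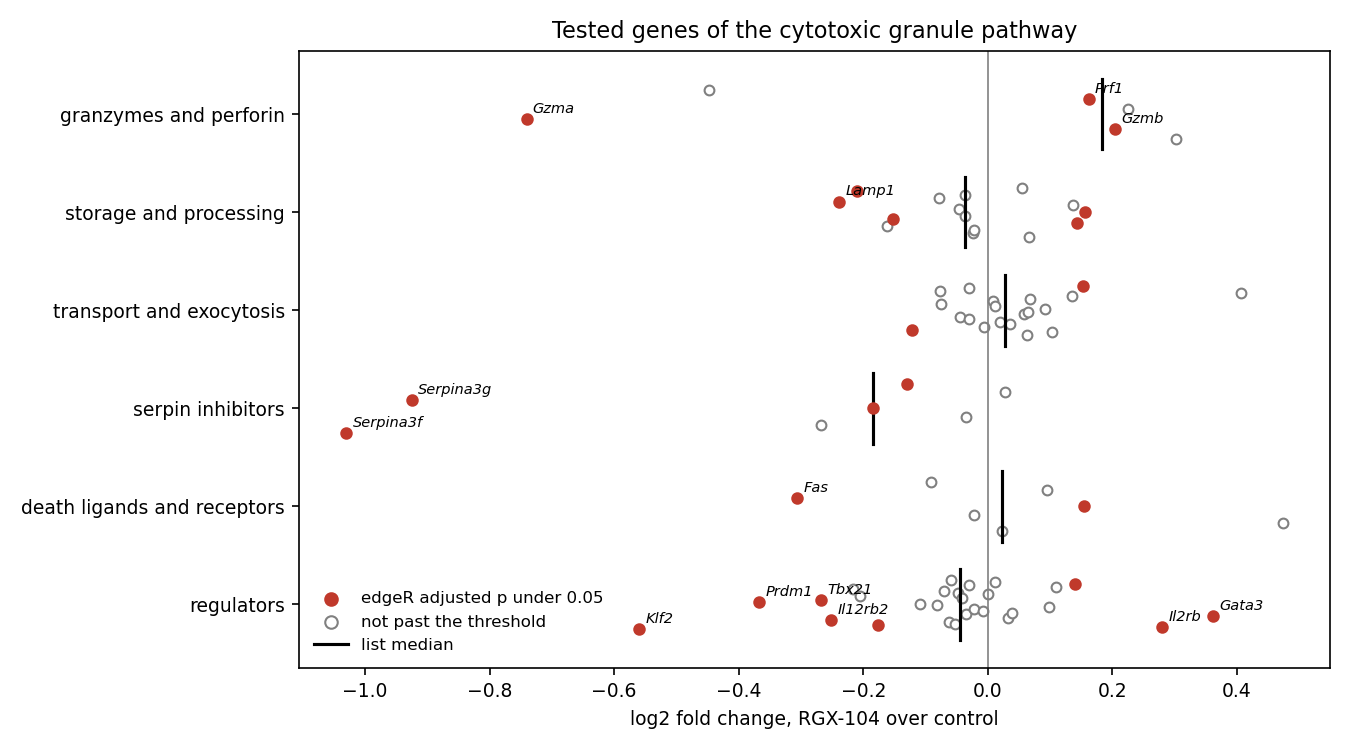
Log2 fold change of RGX-104 over control (x axis) for every tested gene of the granzyme and perforin family and of 5 lists around it (rows). Filled points passed the edgeR test at adjusted p under 0.05, open points did not, and bars are list medians. Most points lie within 0.2 of 0, and Gzma, Serpina3f, Serpina3g and Klf2 are the called genes farthest to the left.

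Transcripts that mark other cells with granule proteases were scarce. Of 12 neighbouring granule protease genes of mast cells and neutrophils, together with Gzmn, 8 had 0 counts, none had more than 8 in any library, and none was tested. Markers of mast cells, basophils and neutrophils summed to 0.0324 to 0.226 CPM with RGX-104 and 0.0552 to 0.229 CPM in controls. Of 10 natural killer cell markers, 2 were tested and neither was called, and their sum was 2.15 to 3.30 CPM with RGX-104 and 2.68 to 3.15 CPM in controls. Ncr1, a defining marker of natural killer cells, had 0 counts in every library, as did Klra8 and Klra9, which have scaffold copies. Of 11 markers of dendritic cells and macrophages, 3 were tested and none was called, and their sum was 4.98 to 5.86 CPM with RGX-104 and 3.79 to 4.98 CPM in controls. Most of this sum was Zbtb46, at 3.77 CPM with RGX-104 and 2.91 CPM in controls (edgeR adjusted p = 0.0552). Zbtb46 overlaps other annotated genes, so this sum is an uncertain measure of such cells. Gzmb was at 6595 CPM or more with RGX-104 and 5645 CPM or more in controls, far above these sums. Gzma, Gzmm and Gzmc had levels of the size of the marker sums, and the part of other cells in their values was not tested.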

How the data were processed

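The table the authors deposited holds raw read counts, 1 row per gene, not normalized. The submitters' processing notes name STAR 2.7.5, cutadapt 2.10, DESeq2 1.4 and R 4.1.0 and build GRCm38, and per the labels' protocols the libraries were TruSeq libraries from total RNA. Which tool, annotation and strand setting produced the counts is not given in the sources used here. Control columns matched numbered samples. RGX-104 columns showed their group only, so RGX-104 libraries are numbered by column.

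From the deposited counts, edgeR 4.0.16 (R 4.3.3) was run on all 8 libraries with TMM scaling, filterByExpr (minimum count 10, minimum total 15), the robust quasi-likelihood test, a single term for treatment, and a threshold of 0.05 on Benjamini-Hochberg adjusted p over 13290 genes. CPM used TMM-scaled library sizes, and standard errors came from the F statistic. The script was tested on simulated data. Lengths, coding sequences and shared windows came from GENCODE M21, promoters and coordinates from RefSeq (GRCm38.p6). All 10 genes had a promoter in that table.

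The genes, the lists and the naming rule were chosen with earlier results of these data known. The rule named all 10 genes, up to 5 called genes of each list with the largest changes, the 5 genes most like Gzmb and Prf1, and a fixed few (Abca1, Tbx21, Eomes, Prdm1, Serpinb9, Ctsc, Srgn, Ifng and Fasl). Cell type markers, genes of the granule protease neighbours, Runx1 and genes without a usable count are named beside it. Some genes that the rule names, and the list of granzyme substrates, are not reported here.

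The labels pair no libraries. Deviations from the group means in columns of the same number correlated at 0.209, 0.299, 0.136 and 0.402 over 8368 genes, so a block by column number was fitted as an alternative. For RGX-104 columns 1, 2 and 4 the control of the same number correlated best. RGX-104 column 3 correlated better with control column 2 (0.206) than with control column 3. The pairing by column number is thus a partial hint from the data, not from the design. Other alternatives were DESeq2 1.42.0, limma-voom (limma 3.58.1), other scalings and filters, 1 surrogate variable (sva 3.50.0), a fold threshold of 1.2, thinning, and leaving libraries out.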

Additional observations from a re-analysis of the deposited data

Results flagged for a closer look

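In 70 groups of 4 libraries checked, 4 held a library far from the other 3, where chance gives about 3.5 at a rate of 1 in 20. Gzma was at 2.69 CPM in RGX-104 library 1, against 4.61 to 4.84 CPM in the other RGX-104 libraries. Prf1 was at 52.1 CPM in control library 3, against 49.4 to 49.8 CPM in the other controls. Gzmd was at 0.0574 CPM, or 2 counts, in control library 1 and at 0 in the other controls. Rab27a was at 126 CPM in control library 1, against 130.3 to 130.9 CPM in the other controls.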

How the results depend on the processing

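These settings moved a count of calls by over 1.5 times. With a minimum fold of 1.2 in the test, 65 were higher and 45 lower over the table, with 0 of the granzyme and perforin genes called either way (edgeR, against 2 higher and 1 lower at no minimum fold). With the replicate block by column number, 1109 genes were higher and 906 lower, and 2 of the family were lower, Gzma and Gzmm. Without RGX-104 libraries 2 and 3, 369 genes were higher and 327 lower, with 1 of the family higher and 0 lower. The log2 fold change of Gzmf then turned to -0.14. With no filter, 2 of the family were lower, Gzma and Gzmk. Leaving out 1 library at a time gave 462 to 719 genes higher and 377 to 621 lower, with 2 of the family higher each time and 0 to 1 lower. In these fits the log2 fold change of Gzmf lay between -0.025 (without control library 2) and 0.90. Of the settings that moved counts by less, upper quartile scaling gave 752 genes higher and 438 lower and library totals 686 and 451, against 640 and 549 with TMM scaling. The block and the fit without libraries 2 and 3 were added after the data were seen.

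Gzmb was called in 8 of 8 fits that left out 1 library and in 12 of 13 other alternatives, and Prf1 in 8 of 8 and 11 of 13. Gzma was called in 3 of 8 and 10 of 13, and was lost with 1 surrogate variable (edgeR adjusted p = 0.0669). Gzmm was called with 1 surrogate variable (adjusted p = 0.0146) and without control library 4 (0.0393), and with DESeq2 its adjusted p was 0.153. The cause of these changes was not tested. The median log2 fold change of all genes was at most 0.0127 under the scalings tried. Read length and the treatment of reads that match several genes limit Gzmc to Gzmg, and depth limits Gzmk, Gzmd, Gzme and Gzmg.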
